A study of Mus musculus with 6 samples.

Results

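The enzymes that build phosphatidylcholine and phosphatidylethanolamine were followed at the transcript level in g*Spns1*-cKO and control liver. The 10 genes are *Chka*, *Chkb*, *Etnk1*, *Etnk2*, *Pcyt1a*, *Pcyt1b*, *Pcyt2*, *Chpt1*, *Cept1* and *Pemt*, chosen by name as the enzymes of the CDP-choline, CDP-ethanolamine and methylation routes, out of 54532 genes in the deposited table. Bulk poly(A) RNA of whole liver was sequenced from 6 mice on the C57BL/6 background, 3 g*Spns1*-cKO and 3 control, with 1 library for each mouse. *Spns1* encodes a lysosomal transporter that carries lysophospholipids out of the lysosome. In g*Spns1*-cKO animals both *Spns1* alleles had loxP sites around exon 3 and a tamoxifen-dependent Cre recombinase, Cre-ERT2, was expressed from the Rosa26 locus. Tamoxifen was injected at 50 mg/kg on postnatal days 11, 13 and 15, so that deletion was directed to all cell types of the body and not to hepatocytes alone. The methods describe the control animals as floxed (*Spns1* fl/fl) littermates, and the labels describe them as wild type. Age at collection, sex, and whether the controls also received tamoxifen are not given in the sources used here for these libraries.

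Phosphatidylcholine and phosphatidylethanolamine are the main phospholipids of animal membranes. In the CDP-choline route a choline kinase phosphorylates choline, a cytidyltransferase turns phosphocholine into CDP-choline, and a phosphotransferase joins the head group to diacylglycerol. The CDP-ethanolamine route runs through the same kinds of step with ethanolamine. The liver has a further route in which PEMT methylates phosphatidylethanolamine to phosphatidylcholine, and it needs phosphatidylcholine for lipoproteins and bile. Lysophosphatidylcholine and lysophosphatidylethanolamine, breakdown products of these same lipids, are among the cargo of SPNS1.

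The libraries held between 30350002 and 35295611 counts. *Spns1* itself (chr7:126370060-126377450, GRCm38) was at 35.9, 50.7 and 34.6 CPM in the control livers and at 17.9, 30.6 and 17.8 CPM in g*Spns1*-cKO livers, where CPM is the count relative to a library size scaled by TMM, the trimmed mean method of edgeR. The groups did not overlap, and *Spns1* fell by 0.87 on the log2 scale (SE 0.25, n = 3 per group, edgeR quasi-likelihood test, adjusted p = 0.0300). This call was lost without control replicate 2 (adjusted p = 0.0785), without g*Spns1*-cKO replicate 1 (0.0910) or without g*Spns1*-cKO replicate 3 (0.0830), and also with 2 other scalings, by library size alone (0.213) and by the upper quartile (0.0635). Reads on the exons other than exon 3 still count toward this gene. The TMM factors were 0.834 to 0.873 in controls and 1.16 to 1.18 in g*Spns1*-cKO livers. The median log2 fold change over the transcriptome was 0.014 with TMM, 0.46 with library size alone and 0.14 with upper-quartile scaling, so each change is given relative to the bulk of genes. With the latter scalings 88.3% and 64.7% of the called genes were higher in g*Spns1*-cKO livers, against 50.9% with TMM. Where library size alone moved a call of a gene named here, this is stated beside it.

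Transcripts of phospholipid synthesis moved in both directions in g*Spns1*-cKO livers. *Chka*, the choline kinase of the first step, rose 2.91-fold, and *Chpt1*, a cholinephosphotransferase of the last step, was 2.94-fold lower. *Etnk2* and *Pcyt2*, a kinase and the cytidyltransferase of the ethanolamine route, were 1.98-fold and 1.60-fold lower. *Pemt* and *Pcyt1a*, the methyltransferase and the main cytidyltransferase of phosphatidylcholine synthesis, were not called, with log2 fold changes of 0.022 and -0.10. All 10 genes passed the filter on low counts, *Pcyt1b* only through its counts in g*Spns1*-cKO livers. Calling genes at adjusted p values under 0.05 gave 2 genes higher, 3 lower and 5 not called. As *Pcyt1b* is one of the 2, nothing is read from its call, and *Chka* is the only other gene called higher. Across the 15449 genes tested, 21.3% were called higher and 20.5% lower, and the calls among the 10 do not set them apart from these shares. The 3 libraries of each group did not overlap for 5 of the 10 genes, *Pcyt1b* among them, and for 54.1% of all genes tested. The median log2 fold change was -0.083 over the 10 genes and 0.014 over all genes tested. Of all genes tested, 7.67% had a higher log2 fold change than *Chka* and 2.86% a lower one than *Chpt1*. A lower level per liver cell and a smaller share of the cells that make the transcript cannot be told apart in bulk tissue.

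**Figure D1:**
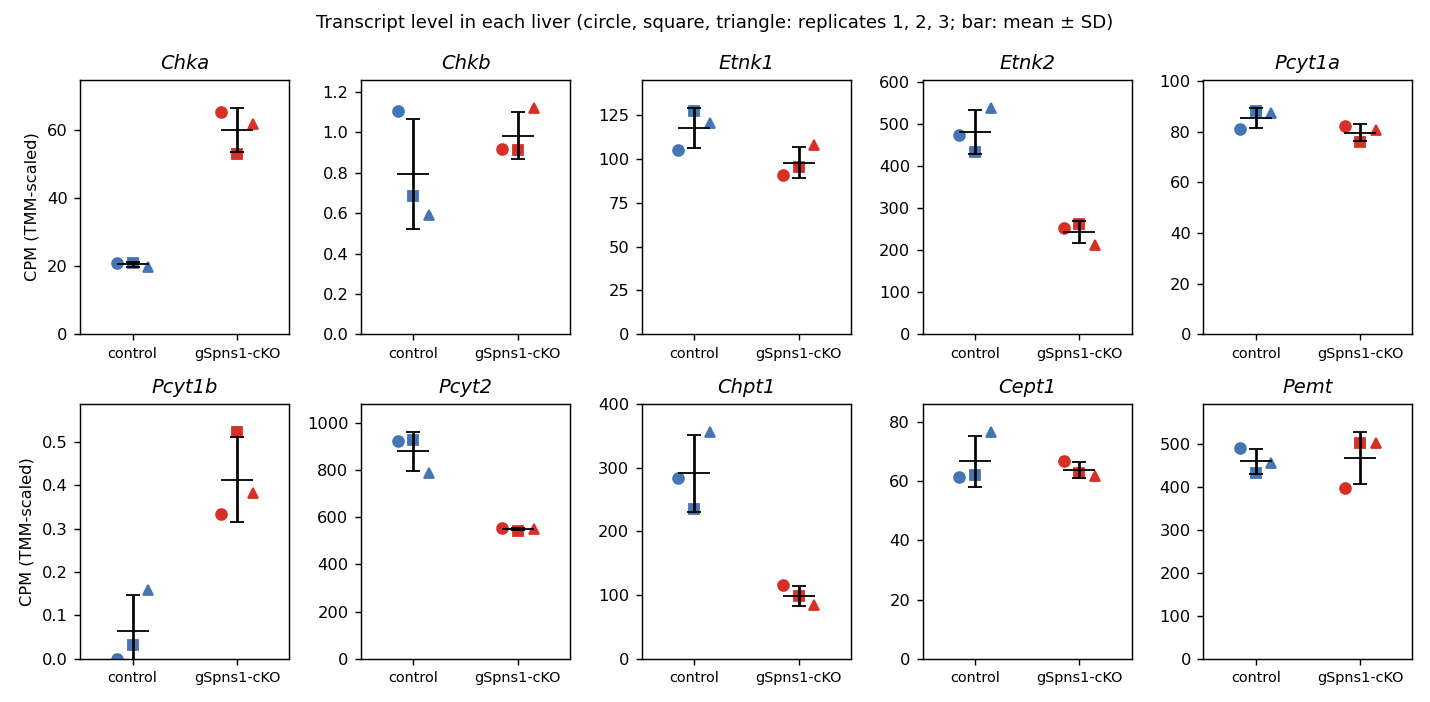
TMM-scaled CPM (vertical axis, linear, from 0) of the 10 genes in each of 3 control (blue) and 3 g*Spns1*-cKO (red) livers, with symbols for the replicate number and black bars for the mean ± SD; the lower arm of the control bar of *Pcyt1b* is cut at 0. *Chka* separates upward, from 19.8 to 21.1 CPM in controls to 52.9 to 65.3 CPM, *Chpt1*, *Etnk2* and *Pcyt2* separate downward, and *Pemt*, *Cept1*, *Pcyt1a*, *Etnk1* and *Chkb* overlap.

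The sequences before the start sites of *Chka*, *Chpt1* and *Etnk2* are shown because these genes had the largest rise and the largest falls among those with a well-measured level. Each runs from 250 bases before to 20 bases after the RefSeq start (GRCm38.p6), 5′ to 3′ on the strand of the gene. They lie at chr19:3851523-3851792 on the plus strand for *Chka*, chr10:88503951-88504220 on the minus strand for *Chpt1* and chr1:133363322-133363591 on the plus strand for *Etnk2*. Capitals mark GC boxes (GGGCGG or CCGCCC) and CCAAT boxes (CCAAT or ATTGG).
Chka: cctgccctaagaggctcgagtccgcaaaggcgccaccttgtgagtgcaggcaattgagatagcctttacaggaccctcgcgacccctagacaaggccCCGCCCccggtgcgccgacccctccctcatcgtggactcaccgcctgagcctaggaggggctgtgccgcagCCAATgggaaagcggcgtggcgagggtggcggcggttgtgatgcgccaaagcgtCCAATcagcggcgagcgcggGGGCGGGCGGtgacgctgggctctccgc
Chpt1: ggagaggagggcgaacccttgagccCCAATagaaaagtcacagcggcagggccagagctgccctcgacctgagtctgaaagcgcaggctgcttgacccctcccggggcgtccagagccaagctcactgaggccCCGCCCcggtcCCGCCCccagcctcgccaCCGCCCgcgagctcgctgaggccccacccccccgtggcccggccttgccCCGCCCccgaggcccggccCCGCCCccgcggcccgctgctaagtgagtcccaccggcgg
Etnk2: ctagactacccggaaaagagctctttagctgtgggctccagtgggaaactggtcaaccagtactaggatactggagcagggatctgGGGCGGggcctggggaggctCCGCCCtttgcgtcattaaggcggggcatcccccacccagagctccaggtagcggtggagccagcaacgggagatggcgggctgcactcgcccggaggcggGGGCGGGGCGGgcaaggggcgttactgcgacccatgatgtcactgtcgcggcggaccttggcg
The GC box, a site type bound by Sp-family factors, was present 3 times in *Chka*, 5 times in *Chpt1* and 4 times in *Etnk2*. A pair of these overlapped in *Chka* and another pair in *Etnk2*. The CCAAT box was present 2 times in *Chka*, once in *Chpt1* and not in *Etnk2*. RefSeq windows from 250 bases before to 50 after the start were found for 9 of the 10 genes, 15 windows in all, and none was found for *Pcyt2*. A GC box stood in 9 of these 15 windows, against 35.7% of all 32851 windows in the table, and a CCAAT box in 7, against 37.4%. Neither the E-box CACGTG, present in 7.15% of all windows, nor the cAMP response element TGACGTCA, present in 1.79%, was found in the 15. GC boxes stood in the windows of *Chka*, *Chpt1* and *Etnk2* alike, and also in windows of *Chkb*, *Pcyt1a*, *Cept1* and *Etnk1*, not called with TMM. The windows of *Pcyt1b* and *Pemt*, 2 each, held none. The windows of *Chka*, *Chpt1* and *Etnk2* held 68.7%, 75.3% and 65.3% G and C bases, against a median of 52.7% over all windows. Some windows of *Pcyt1a* and of *Cept1* overlap each other, and no binding was measured.

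The choline kinases catalyse the first step of the CDP-choline route. *Chka* (ENSMUSG00000024843, chr19:3851773-3894369, plus strand) was at 21.1, 20.9 and 19.8 CPM in control livers and at 65.3, 52.9 and 61.9 CPM in g*Spns1*-cKO livers. Every g*Spns1*-cKO liver was above every control, and the controls lay close together (SD 0.701 CPM against 6.41 CPM). The log2 fold change was 1.54 (SE 0.11, 95% interval 1.29 to 1.79, edgeR adjusted p = 1.037e-05), and it stayed between 1.48 and 1.63 when any 1 library was left out. *Chkb* (ENSMUSG00000022617, chr15:89426360-89429908, minus strand), the other choline kinase, is known above all from muscle. It was counted 31, 21 and 15 times in control and 33, 35 and 44 times in g*Spns1*-cKO libraries. These values overlapped, and the log2 fold change of 0.31 had an interval from -0.50 to 1.12 (adjusted p = 0.530). The value for *Chkb* is uncertain because 50.7% of its exon bases are also exon bases of *Gm44502* on the same strand, a gene listed with 0 counts in every library. How reads on shared bases were assigned is not given in the sources used here.

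Ethanolamine kinases carry out the matching step of the ethanolamine route, and *Etnk2* is the form rich in liver. *Etnk2* (ENSMUSG00000070644, chr1:133363572-133380336, plus strand) was at 473, 433 and 538 CPM in control livers and at 253, 263 and 213 CPM in g*Spns1*-cKO livers. The highest g*Spns1*-cKO liver was well below the lowest control. *Etnk2* fell by 0.99 on the log2 scale (SE 0.14, interval -1.31 to -0.67, edgeR adjusted p = 0.000498). *Etnk1* (ENSMUSG00000030275, chr6:143167221-143232307, plus strand) was at 105, 127 and 120 CPM in control and at 90.5, 94.95 and 108 CPM in g*Spns1*-cKO livers. The groups overlapped in 1 library on each side. Its log2 fold change of -0.26 (SE 0.12, interval -0.53 to -0.0019) did not pass the test (adjusted p = 0.0976), became 0.18 under scaling by library size alone, and passed only with a correction for gene length (log2 fold change -0.51, adjusted p = 0.00712).

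The cytidyltransferases make the CDP-activated head groups. *Pcyt1a* (ENSMUSG00000005615, chr16:32430921-32475070, plus strand) encodes the enzyme taken as rate-limiting for the CDP-choline route. Its values of 81.0, 88.1 and 87.3 CPM in control and 82.4, 75.9 and 80.7 CPM in g*Spns1*-cKO livers overlapped. The log2 fold change was -0.10 (SE 0.10, interval -0.32 to 0.12, adjusted p = 0.441), and under scaling by library size alone it was 0.34 and was called (adjusted p = 0.0134). *Pcyt1b* (ENSMUSG00000035246, chrX:93654863-93749951, plus strand), a second form known from brain and gonads, was barely detected, with 0, 1 and 4 counts in control and 12, 20 and 15 counts in g*Spns1*-cKO libraries. Every g*Spns1*-cKO library held more counts than any control library, and 3 counts correspond to between 0.0763 and 0.119 CPM. The fitted log2 fold change of 2.71 (SE 0.79, interval 0.96 to 4.45, adjusted p = 0.0194) rests on these few reads. Since the gene passed the filter only through the group in which it is high, this value is a description and supports no rise. Without control replicate 3 it was 4.33. The call was lost without control replicate 1 (adjusted p = 0.0610), control replicate 2 (0.0747), g*Spns1*-cKO replicate 2 (0.0585) or g*Spns1*-cKO replicate 3 (0.0511). *Pcyt2* (ENSMUSG00000025137, chr11:120610087-120617936, minus strand) encodes the cytidyltransferase for phosphoethanolamine. It was at 923, 927 and 785 CPM in control livers and at 555, 544 and 550 CPM in g*Spns1*-cKO livers, which lay close together (SD 5.87 CPM) and below every control. *Pcyt2* fell by 0.68 on the log2 scale (SE 0.14, interval -0.98 to -0.37, edgeR adjusted p = 0.00322). With library size alone its log2 fold change was -0.23 and was not called (adjusted p = 0.177).

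Phosphotransferases complete both routes in the membrane. *Chpt1* (ENSMUSG00000060002, chr10:88452745-88504073, minus strand) encodes a cholinephosphotransferase of the Golgi and was at 284, 235 and 356 CPM in control livers. In g*Spns1*-cKO livers it was at 116, 97.9 and 84.5 CPM, so that the highest g*Spns1*-cKO liver was below the lowest control. *Chpt1* fell by 1.55 on the log2 scale (SE 0.18, interval -1.94 to -1.17, edgeR adjusted p = 0.000119). With any 1 library left out its log2 fold change lay between -1.69 and -1.40. *Cept1* (ENSMUSG00000040774, chr3:106502260-106547802, minus strand) encodes the enzyme of the endoplasmic reticulum that accepts both CDP-choline and CDP-ethanolamine. It was at 61.4, 62.0 and 76.4 CPM in control and at 66.7, 62.6 and 61.6 CPM in g*Spns1*-cKO livers. The groups overlapped, with a log2 fold change of -0.065 (SE 0.11, interval -0.32 to 0.19, adjusted p = 0.679), which turned to 0.38 with library size alone and was then called (adjusted p = 0.0126). On the opposite strand, exons of *Dennd2d*, counted 224 to 555 times, cover 24.7% of the *Cept1* exon bases, and exons of *Sycp3*, counted 11 to 60 times, cover 7.93% of those of *Chpt1*. Whether counting used strand is not given in the sources used here.

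*Pemt* (ENSMUSG00000000301, chr11:59970614-60046489, minus strand) encodes the methyltransferase of the liver route from phosphatidylethanolamine to phosphatidylcholine. It was at 491, 433 and 456 CPM in control livers and at 398, 502 and 502 CPM in g*Spns1*-cKO livers. The lowest and the highest liver were both g*Spns1*-cKO, and the groups overlapped. The log2 fold change was 0.022 (SE 0.14, interval -0.29 to 0.34, adjusted p = 0.915). With library size alone it was 0.47 and was called (adjusted p = 0.0193).

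**Figure D2:**
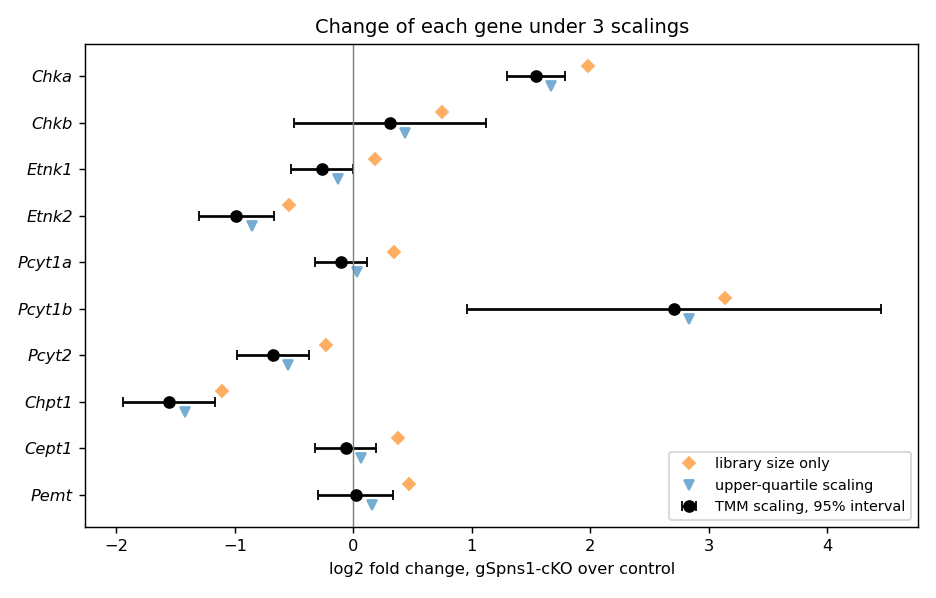
Log2 fold change of g*Spns1*-cKO over control livers (horizontal axis) for the 10 genes, with TMM scaling and its 95% interval (black), library size only (orange diamonds) and upper-quartile scaling (blue triangles). *Chka* stays above 0 and *Chpt1*, *Etnk2* and *Pcyt2* below 0 under all 3 scalings. *Pcyt1a* and *Cept1* are below 0 with TMM and above 0 with the other scalings, and *Etnk1* is above 0 with library size only. *Pcyt1b* also stays above 0, but nothing is read from it, as it passed the filter only through g*Spns1*-cKO livers.

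Ratios of counts between genes of one library do not depend on how libraries are scaled to each other. They were computed for 6 pairs, with 0.5 added to each count, and tested by a two-sided exact permutation test, which with 3 against 3 livers cannot go below p = 0.1. The ratio of *Chpt1* to *Cept1* was 4.62, 3.79 and 4.65 in controls and 1.73, 1.57 and 1.37 in g*Spns1*-cKO livers. It was 2.80-fold lower in g*Spns1*-cKO livers, with no overlap (exact p = 0.1, adjusted over the 6 pairs p = 0.12). The ratio of *Chka* to *Chkb* went from 18.8, 30.0 and 32.4 to 70.2, 57.2 and 54.7, a 2.29-fold higher ratio with the same p-values, subject to the shared exons of *Chkb*. These 2 ratios describe forms of one enzyme step, and in both the balance of the forms differed by more than the spread between livers. For the ethanolamine kinases, the ratio of *Etnk1* to *Etnk2* was 0.221, 0.294 and 0.224 in control and 0.358, 0.361 and 0.506 in g*Spns1*-cKO livers, 1.65-fold higher (exact p = 0.1, adjusted p = 0.12). The ratio of *Pcyt2* to *Pcyt1a*, which sets the cytidyltransferase of the ethanolamine route against that of the choline route, was 11.4, 10.5 and 8.99 in control and 6.74, 7.16 and 6.81 in g*Spns1*-cKO livers. This ratio was 1.49-fold lower, without overlap and with the same p-values. The ratio of *Pemt* to *Pcyt1a*, the methylation route against the CDP-choline route, overlapped at 6.06, 4.92 and 5.23 in control and 4.83, 6.62 and 6.22 in g*Spns1*-cKO livers (exact p = 0.5, adjusted p = 0.5). The ratio of *Pcyt1b* to *Pcyt1a* did not overlap either (exact p = 0.1, adjusted p = 0.12), but nothing is read from it, for the same reason of the filter and because its size rests on the 0.5 added to control counts between 0 and 4.

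**Figure D3:**
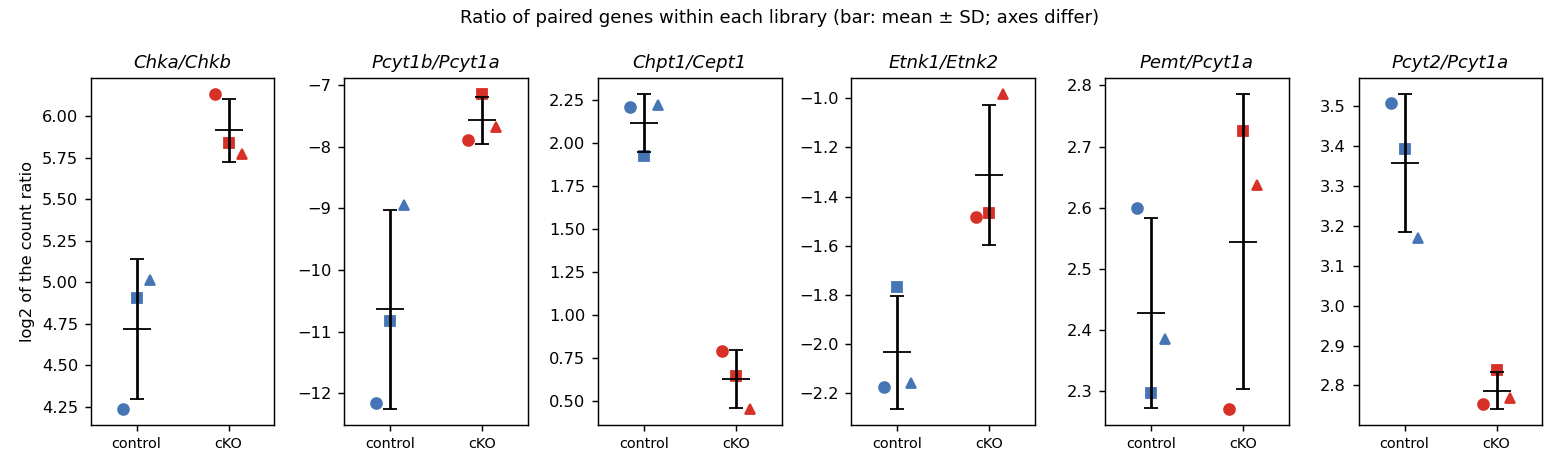
Log2 of the count ratio of 2 genes (vertical axis, a separate range in each panel) in each of 3 control (blue) and 3 g*Spns1*-cKO (red, marked cKO) libraries, with black bars for the mean ± SD. The groups separate in 5 of the 6 pairs, downward for *Chpt1*/*Cept1* and *Pcyt2*/*Pcyt1a* and upward for *Chka*/*Chkb*, *Pcyt1b*/*Pcyt1a* and *Etnk1*/*Etnk2*, and overlap for *Pemt*/*Pcyt1a*. Nothing is read from *Pcyt1b*/*Pcyt1a*. Each separated pair has the lowest p the exact permutation test allows, 0.1, and the share of other gene pairs that separate was not computed.

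Levels were compared between genes as CPM per kilobase of the deposited gene length. For *Chka* this length equals all 12024 of its annotated exon bases, so it can exceed the transcript in use. The order of the genes depends on these lengths. In CPM, *Pcyt2* (878) stood above *Pemt* (460) in control livers. *Pemt* (219 ± 13.9, SD, n = 3) and *Pcyt2* (202 ± 18.6) stood highest in control livers and overlapped. They were followed by *Etnk2* (105 ± 11.6), *Chpt1* (35.0 ± 7.28), *Cept1* (21.4 ± 2.73), *Pcyt1a* (11.5 ± 0.524), *Etnk1* (8.29 ± 0.807), *Chka* (1.71 ± 0.0583), *Chkb* (0.259 ± 0.0889) and *Pcyt1b* (0.0119 ± 0.0156), with no overlap between neighbours. By this measure the terminal enzymes of the choline route changed places in g*Spns1*-cKO livers. In CPM they did not, with *Chpt1* (99.3) still above *Cept1* (63.6) in g*Spns1*-cKO livers. *Cept1* (20.4 ± 0.875 CPM per kilobase) ranked 4 and *Chpt1* (11.9 ± 1.87) ranked 5, and *Chpt1* now overlapped with *Pcyt1a* (10.8 ± 0.452). *Pemt* (222 ± 28.7) no longer overlapped with *Pcyt2* (127 ± 1.35), and the other ranks were as in controls. *Chka* kept rank 8 at 4.99 ± 0.533, so that after its rise it was still below *Etnk1* (6.90 ± 0.621).

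The summed level of the 10 transcripts per kilobase was 624, 585 and 605 in controls and 431, 475 and 466 in g*Spns1*-cKO livers, lower in every g*Spns1*-cKO liver with TMM scaling. This order rests on the TMM factors, 0.834 to 0.873 in controls and 1.16 to 1.18 in g*Spns1*-cKO livers. The sum was not computed with library size alone, so no fall of the pathway total is read here. Shares of this sum do not depend on scaling, but they depend on the gene lengths used. *Pemt* made up 36.2% of it in controls (35.2 to 37.4%) and 48.5% in g*Spns1*-cKO livers (43.9 to 51.2%). *Pcyt2* went from 33.5% (29.9 to 36.5%) to 27.7% (26.3 to 29.7%), and *Etnk2* from 17.4% (16.2 to 19.5%) to 11.7% (9.99 to 12.8%). The share of *Chpt1* went from 5.79% (4.83 to 7.07%) to 2.63% (2.18 to 3.22%), while that of *Chka* went from 0.284% (0.272 to 0.297%) to 1.10% (0.926 to 1.26%). The ranges of the groups did not overlap for any of these 5 genes. They did not overlap either for *Chkb*, *Pcyt1a*, *Pcyt1b* and *Cept1*, whose shares were higher in g*Spns1*-cKO livers. Nothing is read from *Pcyt1b*, and *Chkb* is subject to its shared exons. How often shares separate in other sets of genes was not computed, and 54.1% of all genes tested separated in CPM. The mean share of *Pcyt1a* went from 1.91% to 2.36% and that of *Cept1* from 3.54% to 4.48%. Only *Etnk1* overlapped. As the parts sum to the whole, a share also moves when only the others do, and the rise in the share of *Pemt* came with a log2 fold change of 0.022.

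**Figure D4:**
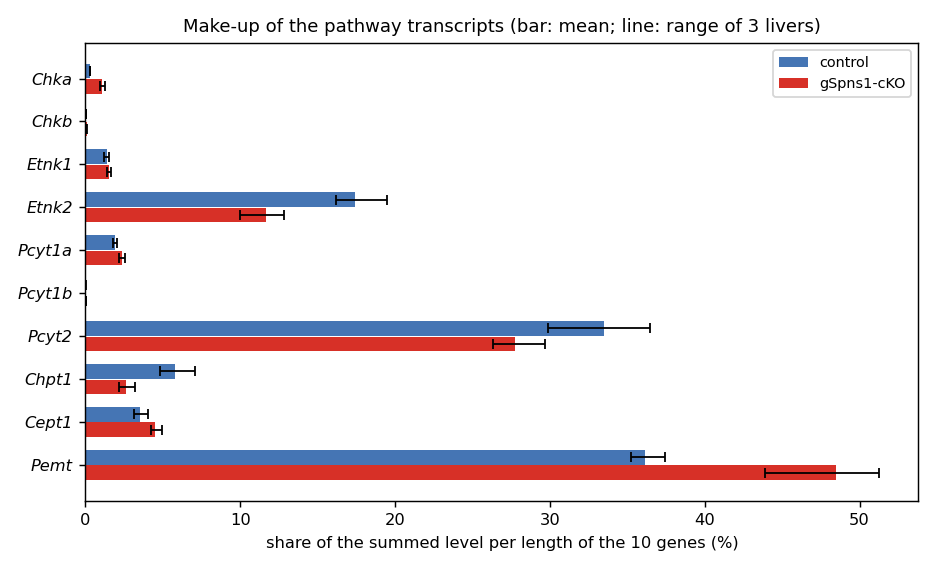
Mean share (horizontal axis, percent) of each gene in the summed CPM per kilobase of the 10 genes in 3 control (blue) and 3 g*Spns1*-cKO (red) livers, with lines from the lowest to the highest liver. *Pemt* takes 36.2% in controls and 48.5% in g*Spns1*-cKO livers, and the shares of *Pcyt2*, *Etnk2* and *Chpt1* are smaller in g*Spns1*-cKO livers.

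Neighbouring steps of the pathway were read from the same fit. In the phosphatidylserine and phosphatidylethanolamine branch, 3 of 6 genes were called lower and 0 higher, with a median log2 fold change of -0.35. These were *Selenoi*, the ethanolaminephosphotransferase (-0.38, SE 0.11, adjusted p = 0.0155), *Ptdss1*, a phosphatidylserine synthase (-0.38, SE 0.12, adjusted p = 0.0259), and *Pisd*, the mitochondrial phosphatidylserine decarboxylase (-0.32, SE 0.11, adjusted p = 0.0435). The count of lower genes was 0 with library size alone, where these 3 had log2 fold changes of 0.066, 0.061 and 0.12, and 0 with upper-quartile scaling. It was also 0 without control replicate 3 or without g*Spns1*-cKO replicate 3, and 1 without control replicate 2 or without g*Spns1*-cKO replicate 2.

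Of the 16 genes of choline transport and oxidation, 13 were tested, 4 were called higher and 4 lower, and the median log2 fold change was 0.10. The 3 untested genes were *Slc44a5* and *Slc5a7*, listed at 0 in every library, and *Slc22a2*. One gene called higher, *Slc44a4* (4, 11 and 6 control counts), passed the filter only through its g*Spns1*-cKO counts, so nothing is read from its call. Genes for choline carriers were among those that rose. *Slc44a2* was at 6.70 ± 0.556 CPM in control and 15.1 ± 0.169 CPM in g*Spns1*-cKO livers (log2 fold change 1.17, SE 0.13, edgeR adjusted p = 0.000101), *Slc44a3* rose by 0.67 (SE 0.13, adjusted p = 0.00303), and *Flvcr1*, which carries choline and was first known as a haem exporter, rose by 0.97 (SE 0.20, adjusted p = 0.00343). The called genes that were lower included enzymes that oxidise choline derivatives in mitochondria. *Sardh*, sarcosine dehydrogenase, was at 1005 ± 106 CPM in control and 504 ± 77.2 CPM in g*Spns1*-cKO livers (log2 fold change -0.996, SE 0.16, adjusted p = 0.000954), *Aldh7a1*, which oxidises betaine aldehyde, fell by 0.92 (SE 0.13, adjusted p = 0.000481) and *Dmgdh*, dimethylglycine dehydrogenase, fell by 0.78 (SE 0.15, adjusted p = 0.00200). With library size alone 8 genes of the list were higher and 2 lower, and *Dmgdh* was not called (log2 fold change -0.34).

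In the methyl donor cycle, which supplies the S-adenosylmethionine used by PEMT, 6 of 14 genes were called lower and 1 higher, with a median log2 fold change of -0.25. Whether the supply of S-adenosylmethionine changed was not tested. *Gnmt*, the glycine methyltransferase abundant in hepatocytes, was at 2204 ± 105 CPM in control and 1015 ± 70.6 CPM in g*Spns1*-cKO livers (log2 fold change -1.12, SE 0.15, edgeR adjusted p = 0.000268). *Gamt*, which uses methyl groups to make creatine, fell by 0.68 (SE 0.15, adjusted p = 0.00428), and *Cth*, cystathionine gamma-lyase, fell by 0.77 (SE 0.19, adjusted p = 0.00900). With library size alone 1 gene was lower and 4 higher, and *Gamt* and *Cth* were not called (log2 fold changes -0.24 and -0.32). The count of lower genes was 3 without control replicate 2.

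The last list held the acyltransferases and phosphatases that supply diacylglycerol, and the CTP synthases. Of its 14 genes, 4 were called higher and 3 lower, with a median log2 fold change of 0.17. Both CTP synthases, which make the nucleotide consumed by the cytidyltransferases, rose. *Ctps2* was at 9.64 ± 1.19 CPM in control and 20.4 ± 1.79 CPM in g*Spns1*-cKO livers (log2 fold change 1.08, SE 0.14, edgeR adjusted p = 0.000215), and *Ctps* at 4.12 ± 0.588 and 8.54 ± 1.14 CPM (1.05, SE 0.18, adjusted p = 0.00134). *Agpat5* rose by 0.42 (SE 0.13, adjusted p = 0.0218). The acyltransferases *Gpat4* and *Agpat2* fell by 1.43 (SE 0.13, adjusted p = 3.417e-05) and 1.05 (SE 0.12, adjusted p = 0.000141) on the log2 scale, and *Agpat3* fell by 0.47 (SE 0.13, adjusted p = 0.0166). *Agpat3* was not called with library size alone (log2 fold change -0.026), where 7 genes of the list were higher. The count of higher genes was 2 without control replicate 3 or without g*Spns1*-cKO replicate 2.

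**Figure D5:**
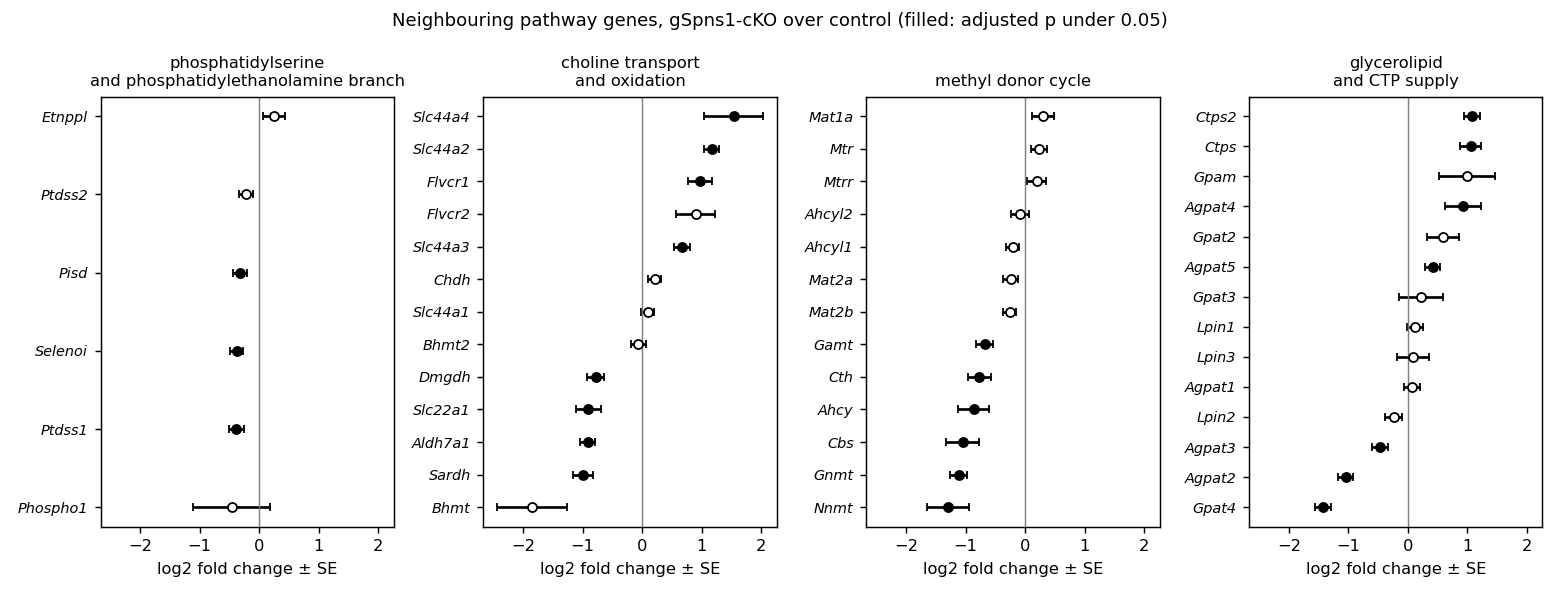
Log2 fold change ± SE of g*Spns1*-cKO over control livers (horizontal axis, TMM scaling, 3 livers per group) for genes of 4 neighbouring lists (1 tested gene of the methyl donor cycle is not drawn), with filled circles for an edgeR adjusted p under 0.05. The called genes of the choline and glycerolipid lists lie on both sides of 0, the 6 called genes drawn for the methyl donor cycle lie below 0, and the 3 called genes of the phosphatidylserine and phosphatidylethanolamine branch lie below 0 but between 0.061 and 0.12 with library size alone.

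Markers of other liver cells moved with the group. The hepatocyte list, of which 7 of 8 genes were found by symbol, had 0 genes higher and 4 lower, and its summed level was 98582 to 111336 CPM in control and 59139 to 67921 CPM in g*Spns1*-cKO livers. Scaled by library size alone, this list had 1 gene higher, *Cps1*, and 1 lower, *Serpina1c*, and most of the summed level is *Alb* (69348 ± 7160 CPM in control and 41886 ± 3981 CPM in g*Spns1*-cKO livers). The summed level of 9 macrophage markers went from between 183 and 295 CPM to between 718 and 1043 CPM, with 9 of 9 called higher. For cholangiocytes 6 of 6 were higher, with sums of 44.4 to 63.0 and 171 to 280 CPM, and for stellate cells or fibroblasts 6 of 7 were higher, with sums of 191 to 219 and 507 to 553 CPM. For endothelial cells 5 of 6 were higher, with sums of 137 to 153 and 202 to 249 CPM, for neutrophils 4 of 4 tested, with sums of 3.09 to 5.03 and 9.53 to 15.3 CPM, and for lymphocytes 1 of 7, with sums of 3.12 to 4.03 and 5.66 to 5.78 CPM. No marker was at 0 in every library. Some low markers passed the filter only through their g*Spns1*-cKO counts, so nothing is read from their calls. These were *Retnlg* (3, 12 and 3 control counts) of neutrophils, *Cftr* (5, 1 and 2) of cholangiocytes and *Nkg7* (17, 20 and 3) of lymphocytes. The part of these cells in the rise of *Chka* and in the falls of *Chpt1*, *Etnk2* and *Pcyt2* was not tested.

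The genes most like *Chka* and *Chpt1* over the 6 libraries were found by the root-mean-square distance of mean-centred log2(CPM + 0.25) among 13248 protein-coding genes. Nearest to *Chka* were *Loxl4*, a lysyl oxidase (distance 0.080), *Ptp4a3*, a phosphatase (0.091), and *Abcg1*, a sterol exporter (0.094), where the median of all genes was 0.784. *Loxl4* was low, at 0.251 CPM in control and 1.18 CPM in g*Spns1*-cKO livers, and its fitted log2 fold change was 2.22 against 1.54 for *Chka*, so its small distance depends on the 0.25 CPM added. Nearest to *Chpt1* were *Cyp2c54*, a cytochrome P450 (0.104), *Ccdc171* (0.129) and *Car5a*, the mitochondrial carbonic anhydrase of liver (0.137), where the median was 0.838. *Cyp2c54* has close paralogs whose reads may be split between genes. The measure takes in both the difference between the groups and the deviations of single livers.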

How the data were processed

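RNA-Seq of whole liver from 3 g*Spns1*-cKO and 3 control mice was analysed, grouped by the sample labels. Per the labels' processing notes, reads were handled with fastp, HISAT2 2.0.5 and featureCounts 1.5.0-p3 on mm10. The authors deposited whole-number counts per gene, not normalized, and FPKM values, which were not used in any result. The deposited table also holds the gene length, and columns that were not used: a signal per group, and the authors' test of the groups (log2 fold change, p-value, adjusted p-value). Coordinates equal those of GENCODE M21 (GRCm38) for the 10 genes.

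The count test was edgeR 4.0.16 in R 4.3.3 (filterByExpr, TMM, robust quasi-likelihood fit, Benjamini-Hochberg over 15449 genes, threshold 0.05). SE is the log2 fold change over the square root of F. The replicates are separate mice. No pair of libraries in a group agreed within sampling noise, and precision at this depth covers counting error only for single libraries. Alternatives used DESeq2 1.42.0, limma-voom (limma 3.58.1), other scalings, filters and thresholds, a gene length offset, a replicate block and leaving out each mouse. The fit was also run on simulated data with few changed genes, balanced in direction. That run did not cover the difference in TMM factors between the groups.

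The 10 genes and all lists were chosen with earlier results of these data known. Named genes were the 10, *Spns1*, overlapping genes, up to 3 genes per direction and list with the smallest adjusted p, and the 3 nearest genes to the member with the smallest adjusted p in each direction. A gene that this rule selects is not reported here. Protein sequences were not used here.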

Additional observations from a re-analysis of the deposited data

How the results depend on the processing

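*Chka*, *Chpt1* and *Etnk2* kept their direction and call under every alternative run. With library size alone 5 of the 10 genes were called higher and 2 lower, beside 7289 higher and 970 lower of the 15449 genes tested. *Pcyt1a*, *Cept1* and *Etnk1* then turned to log2 fold changes of 0.34, 0.38 and 0.18, and *Pcyt2* lost its call. With upper-quartile scaling *Pcyt1a* and *Cept1* turned to 0.028 and 0.066. Library size alone gave 1 gene higher and 0 lower in the phosphatidylserine and phosphatidylethanolamine branch, 8 and 2 in choline transport and oxidation, 4 and 1 in the methyl donor cycle, and 7 higher in the glycerolipid list. Upper-quartile scaling gave 0 lower in the first of these. *Spns1* was not called with library size alone (-0.43, adjusted p = 0.213) or upper-quartile scaling (-0.74, adjusted p = 0.0635). At an adjusted p under 0.01, 3890 genes were called in place of 6452, and 1 of the 10 was higher. A filter of at least 10 counts in every library also left 1 higher, since *Pcyt1b* was then not tested. With 1 library left out, between 4490 and 6429 genes were called, 1 to 2 of the 10 genes were higher and 3 lower. *Pemt* ranged from -0.033 to 0.12 and *Cept1* from -0.13 to 0.033. The lists then gave 0 to 2 lower in the phosphatidylserine and phosphatidylethanolamine branch, 3 to 5 lower in the methyl donor cycle and 2 to 4 higher in the glycerolipid list. None of the 6 ratios changed direction under its alternatives.

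Same-numbered libraries of the groups did not deviate together across genes, with correlations of 0.039, 0.031 and -0.029. With 3 mice per group this cannot settle whether they shared a litter or a batch. A replicate block called 6100 genes and left 2 of the 10 genes higher and 3 lower. With this block *Spns1* had a log2 fold change of -0.90 and a smaller edgeR adjusted p, 0.000679 against 0.0300 without it. Depth limits *Pcyt1b* and *Chkb*.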

Other observations

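The genes here were picked after their values were seen. *Bhmt*, which remethylates homocysteine with betaine, the oxidation product of choline, had 66078, 41630 and 63768 counts in control and 38404, 12967 and 12405 counts in g*Spns1*-cKO libraries. Every g*Spns1*-cKO liver was below every control once scaled, and the spread between the g*Spns1*-cKO livers was wide (574 ± 428 CPM, SD, n = 3, against 2074 ± 631 CPM). The log2 fold change of -1.85 (SE 0.59) did not pass the edgeR test (adjusted p = 0.0538). Its neighbour in function *Bhmt2* was at 237 ± 4.51 CPM in control and 227 ± 29.2 CPM in g*Spns1*-cKO livers (log2 fold change -0.063, adjusted p = 0.726). Scaled by library size alone, *Bhmt2* turned to 0.38 and was called higher.

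*Gpam*, the mitochondrial glycerol-3-phosphate acyltransferase, had 6150, 2461 and 2184 counts in control and 10310, 7035 and 11786 counts in g*Spns1*-cKO libraries. Its groups overlapped after scaling, and the log2 fold change of 1.00 (SE 0.47) did not pass the test (adjusted p = 0.150), while *Gpat4*, which serves the same step in the endoplasmic reticulum, was lower in every g*Spns1*-cKO liver.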
